A study of Mus musculus with 14 samples.

Results

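The animals described here are 6 mice of the C57BL/6J strain whose sample titles start with 119 or 141, out of 14 in the series, and they were chosen by that title prefix. Total RNA of the cortex was sequenced at 8 weeks of age, and per the labels 3 of the animals carried a heterozygous knockout of Dnmt3a and 3 were wild type. Prefix 119 held 1 wild-type male (animal 119-1) and 1 heterozygous male (119-2), and prefix 141 held 2 wild-type females (141-1 and 141-2) and 2 heterozygous females (141-3 and 141-4). Prefix and sex were therefore the same split among these animals and cannot be told apart. The remaining 8 animals, with prefixes 046, 047, 048 and 139, held 4 heterozygotes and 4 wild types of the same strain, age and tissue, and serve below as the comparison. Neither the meaning of that number nor the part of Dnmt3a removed in the knockout is given in the labels. They also do not say in so many words that each sample came from its own mouse. If it did not, the p-values would measure only technical spread.

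Dnmt3a encodes a DNA methyltransferase that adds methyl groups to cytosines without needing a methylated template. In postnatal neurons it writes much of the methylation at cytosines outside CG pairs, a mark that methyl-binding proteins read. Heterozygous loss of the human gene is known to cause an overgrowth syndrome with intellectual disability, and a heterozygous mouse has 1 intact copy in every cell, so a partial loss of transcript is what the assay can see.

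Total counts in these 6 libraries lay between 9794201 and 14335406, and all comparisons below use the counts with the title prefix as a term in the fit. Ddx3y reads and Xist reads matched the labelled sex in 6 of 6 libraries. The libraries did not group by genotype alone. The first principal component of log2 CPM (CPM are counts relative to the TMM-scaled library total; 43.7% of the variance) placed the wild-type females at 23.8 and 19, the heterozygous females at -2.04 and -6.80, the wild-type male at -10.0 and the heterozygous male at -23.9. Within each prefix the wild types had the higher score, but the wild-type male lay beyond both heterozygous females. Markers of cortical layers were present in every library (Unc5d at 82.1 to 112 CPM), and the choroid plexus marker Ttr reached at most 3.10 CPM.

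**Figure D1:**
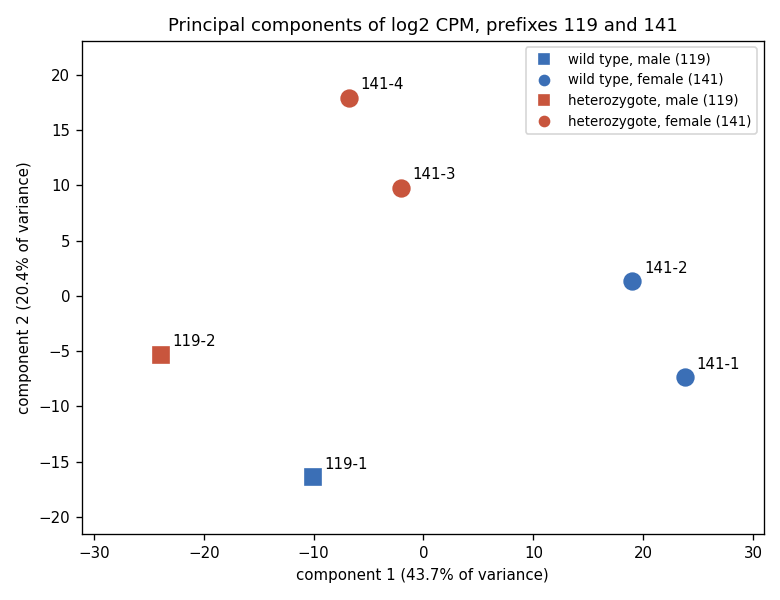
Scores of the 6 libraries on components 1 (horizontal, 43.7% of the variance) and 2 (vertical, 20.4%) of log2 CPM, squares for prefix 119 (male) and circles for prefix 141 (female), blue for wild type and red for heterozygous. The wild type lies to the right of the heterozygotes within each prefix, and animal 119-1 lies left of both heterozygous females.

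Dnmt3a itself was lower in every heterozygote than in every wild type. Its level was 132 CPM in the male and 152 and 147 CPM in the female wild types, against 84.6 CPM in the male and 95.2 and 109 CPM in the female heterozygotes. The wild-type mean was 144 ± 10.6 CPM (SD, n = 3) and the heterozygous mean 96.3 ± 12.4 CPM (SD, n = 3), a log2 fold change of -0.58 (SE 0.0613, adjusted p = 2.1e-06 from the quasi-likelihood F test of edgeR with Benjamini-Hochberg adjustment over 13881 genes). The change was -0.64 in the males and -0.55 in the females, and -0.55 in the animals of the other prefixes. Permuting the genotype labels within each prefix gave an exact two-sided p of 0.167, which is the smallest that 12 relabellings can give. Without the prefix as a term, the adjusted p was 0.0885 by edgeR. Reads were counted per gene, and any read from the undeleted stretches of the targeted allele would enter this count.

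The share called among other genes of the methylation machinery was 10%, and with 20 genes no difference from all genes is read. Leaving out Dnmt3a, 20 genes that write, erase or read DNA methylation were tested, and 2 of them passed, 1 higher and 1 lower. Of all genes tested 8.88% rose and 7.72% fell (16.6% in either direction). Zbtb4, which binds methylated DNA through zinc fingers, fell. Zbtb4 was at 239.7 CPM in the male and 267 and 246 CPM in the female wild types, against 194 CPM in the male and 227 and 221 CPM in the female heterozygotes (log2 fold change -0.23, adjusted p = 0.0044 by edgeR), with no overlap between the genotypes. Mbd5, which carries a methyl-binding domain, rose by 0.20 (adjusted p = 0.016 by edgeR). The maintenance enzyme gene Dnmt1 had a log2 fold change of 0.15 and Tet1, Tet2 and Tet3, whose products oxidise methylcytosine, had 0.076, 0.00085 and 0.10. None of these 4 passed the test.

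Across all genes, 2304 of 13881 passed an adjusted p of 0.05, 1233 of them higher and 1071 lower in heterozygotes. Most changes were small. The median size was 0.26 on the log2 scale among genes that rose and -0.34 among genes that fell, and 27 genes changed by 1 or more. In 735 of the genes that rose and 692 of those that fell, the 3 heterozygotes lay entirely outside the range of the 3 wild types. Over all genes tested, called or not, the heterozygotes lay wholly above in 11.1% and wholly below in 11.1%. These counts rest on the prefix term: without it edgeR called 0 genes (2511 had an unadjusted p under 0.05, smallest adjusted p 0.0715) and DESeq2 called 441. With the term, DESeq2 called 1477. Leaving out animal 141-1 lowered edgeR's count to 1260 and leaving out animal 141-4 to 1241. The females alone gave 2354 calls, and the 1 male pair allows no test. Upper-quartile scaling, which shifts the median of all genes from 0.0016 to -0.031, changed the split to 930 higher and 1369 lower.

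Genes of neuronal receptors and of the matrix around neurons, Grin2b, Chrna4 and Hapln4, were among the 12 with the smallest p that rose. Grin2b, the GluN2B subunit of the NMDA receptor, was at 475 CPM in the male and 359 and 376 CPM in the female wild types, against 608 CPM in the male and 482 and 539 CPM in the female heterozygotes. No heterozygote lay within the wild-type range, although the wild-type male at the upper end of that range came close to the lowest heterozygous female. The log2 fold change of Grin2b was 0.43 (SE 0.0578, adjusted p = 1.0e-05 by edgeR). Chrna4, the alpha4 subunit of the nicotinic acetylcholine receptor, was at 55.3 CPM in the male and 39.3 and 44.1 CPM in the female wild types, against 72.6 CPM in the male and 59.8 and 64.5 CPM in the female heterozygotes, again without overlap, and rose by 0.51 (SE 0.0706, adjusted p = 2.0e-05 by edgeR). Hapln4, a link protein of perineuronal nets, rose by 0.57 (SE 0.0738, adjusted p = 2.9e-05 by edgeR). It was at 97.8 CPM in the male and 73.4 and 92.7 CPM in the female wild types, against 138 CPM in the male and 118 and 135 CPM in the female heterozygotes. The genotypes did not overlap for Hapln4.

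Vgf, Pcsk2 and Pcsk1n, also among the leading genes, are known from regulated secretion. Vgf, a neuropeptide precursor, was at 222 CPM in the male and 144 and 165 CPM in the female wild types, against 295 CPM in the male and 205 and 226 CPM in the female heterozygotes. The male wild type lay within the range of the heterozygous females, so the genotypes overlapped, but within each prefix the heterozygotes were the higher ones. Vgf rose by 0.45 (SE 0.0598, adjusted p = 9.4e-06 by edgeR). The prohormone convertase gene Pcsk2 rose by 0.44 (SE 0.0612, adjusted p = 2.0e-05 by edgeR), secretogranin II (Scg2) by 0.38 (SE 0.0579, adjusted p = 5.5e-05 by edgeR) and chromogranin A (Chga) by 0.46 (SE 0.0671, adjusted p = 3.3e-05 by edgeR). Against these, Pcsk1n, which encodes the convertase inhibitor proSAAS, fell. Its level was 409.7 CPM in the male and 422 and 404 CPM in the female wild types, against 319 CPM in the male and 302 and 293 CPM in the female heterozygotes, with the genotypes apart, and the change on the log2 scale was -0.44 (SE 0.0551, adjusted p = 7.4e-06 by edgeR). The sorting receptor gene Sorl1 rose by 0.46 (SE 0.0629, adjusted p = 2.0e-05 by edgeR).

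Other genes among the 12 with the smallest p that rose were Klf10, a zinc finger transcription factor induced by TGF-beta, Tspyl5, Disp2, Pak7, the teneurin gene Odz3 and Lingo1. Klf10 was at 30.1 CPM in the male and 38.5 and 50.6 CPM in the female wild types, against 45.7 CPM in the male and 78.1 and 76.6 CPM in the female heterozygotes, a log2 fold change of 0.73 (SE 0.0807, adjusted p = 4.1e-06 by edgeR). A wild-type female was above the heterozygous male. Tspyl5 was at 69.8 CPM in the male and 56.3 and 61.1 CPM in the female wild types, against 99.3 CPM in the male and 81.6 and 85.2 CPM in the female heterozygotes, with the genotypes apart. It rose by 0.51 (SE 0.0631, adjusted p = 7.4e-06 by edgeR). Disp2, Pak7, Odz3 and Lingo1 rose by 0.43, 0.45, 0.40 and 0.38, each without overlap between the genotypes.

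**Figure D2:**
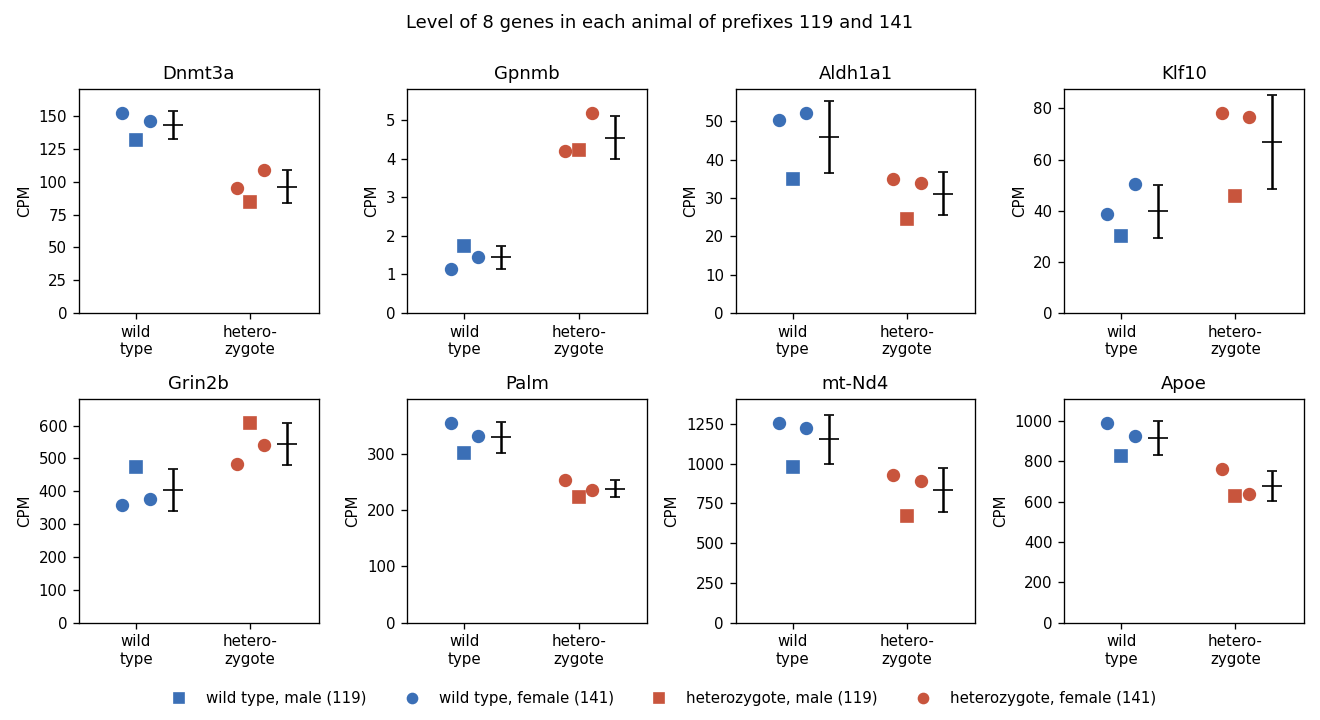
Level of 8 genes in CPM (vertical, from 0) in each of the 6 animals by genotype (horizontal), squares male, circles female, with the mean and SD of 3 animals drawn as black bars. Dnmt3a, Palm, mt-Nd4, Aldh1a1 and Apoe lie lower and Gpnmb and Grin2b higher in all heterozygotes than in all wild types, while for Klf10 the ranges overlap.

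Among the genes that fell, the smallest p after Dnmt3a belonged to Rasl10b, a Ras-like GTPase gene, at 420.5 CPM in the male and 532 and 482 CPM in the female wild types, against 309 CPM in the male and 358 and 314 CPM in the female heterozygotes. The genotypes were apart and the change on the log2 scale was -0.54 (SE 0.0607, adjusted p = 3.5e-06 by edgeR). Palm, which encodes paralemmin, a lipid-anchored protein of the plasma membrane, was at 300.5 CPM in the male and 355 and 331 CPM in the female wild types, against 224 CPM in the male and 254 and 235 CPM in the female heterozygotes. It fell with a log2 fold change of -0.47 (SE 0.0561, adjusted p = 4.9e-06 by edgeR). Pak6 fell (log2 fold change -0.57, SE 0.0683, adjusted p = 7.4e-06 by edgeR) while the related kinase gene Pak7 rose. Slc25a18, a mitochondrial glutamate carrier, was at 39.3 CPM in the male and 57.2 and 55.3 CPM in the female wild types, against 25.8 CPM in the male and 38.8 and 35.0 CPM in the female heterozygotes, with a log2 fold change of -0.61 (SE 0.0737, adjusted p = 5.8e-06 by edgeR) and no overlap. Scd1, a fatty acid desaturase, had -0.43 (SE 0.0539, adjusted p = 7.4e-06 by edgeR), but its male wild type was below the heterozygous females. The small Cajal body RNA Scarna10 fell by more than these. It was at 24.9 CPM in the male and 33.4 and 30.7 CPM in the female wild types, against 16.7 CPM in the male and 16.0 and 16.8 CPM in the female heterozygotes, with a log2 fold change of -0.84 (SE 0.0954, adjusted p = 3.5e-06 by edgeR). Also among the 12 with the smallest p were Rpl13a, mt-Nd4 and mt-Nd5, described with their groups, and AC027184.1, at 1885 CPM in the male and 2450.3 and 2245 CPM in the female wild types, against 1419 CPM in the male and 1339 and 1305 CPM in the female heterozygotes.

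The sequences upstream of leading genes show how much the number of CG pairs, the classic site of DNA methylation in mammals, varies among genes that changed. Shown are the 250 bases before the annotated start of the 2 genes with the smallest p in each direction that have exactly 1 promoter entry, and of Gpnmb, whose log2 fold change was over 1. They come from RefSeq on build GRCm38.p6, read 5′ to 3′ on the gene's strand, with CG in capitals. Of all 32851 promoters in that table the median number of CG pairs in this window was 6, with quartiles of 2 and 16, and 92.1% held at least 1.
Chrna4, chr2:181039178-181039427, minus strand: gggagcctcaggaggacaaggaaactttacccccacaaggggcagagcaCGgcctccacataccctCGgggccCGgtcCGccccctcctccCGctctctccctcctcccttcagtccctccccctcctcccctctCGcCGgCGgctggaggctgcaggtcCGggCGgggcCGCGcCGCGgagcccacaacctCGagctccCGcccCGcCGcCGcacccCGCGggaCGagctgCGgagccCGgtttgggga
Pak7, chr2:136387968-136388217, minus strand: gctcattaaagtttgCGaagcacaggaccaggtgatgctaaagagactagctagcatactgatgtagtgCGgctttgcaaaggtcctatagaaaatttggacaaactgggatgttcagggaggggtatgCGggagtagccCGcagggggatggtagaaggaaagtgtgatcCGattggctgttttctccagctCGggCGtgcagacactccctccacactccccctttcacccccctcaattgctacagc
Palm, chr10:79793322-79793571, plus strand: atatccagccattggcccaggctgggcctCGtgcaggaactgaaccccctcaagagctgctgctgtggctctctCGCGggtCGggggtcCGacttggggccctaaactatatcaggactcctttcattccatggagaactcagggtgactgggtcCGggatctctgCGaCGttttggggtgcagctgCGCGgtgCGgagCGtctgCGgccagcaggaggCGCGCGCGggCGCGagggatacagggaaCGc
Slc25a18, chr6:120773518-120773767, plus strand: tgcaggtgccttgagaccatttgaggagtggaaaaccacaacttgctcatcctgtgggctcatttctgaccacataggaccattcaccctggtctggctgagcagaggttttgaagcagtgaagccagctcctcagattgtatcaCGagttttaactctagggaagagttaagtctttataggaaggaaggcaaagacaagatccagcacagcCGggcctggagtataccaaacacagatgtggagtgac
Gpnmb, chr6:49036268-49036517, plus strand: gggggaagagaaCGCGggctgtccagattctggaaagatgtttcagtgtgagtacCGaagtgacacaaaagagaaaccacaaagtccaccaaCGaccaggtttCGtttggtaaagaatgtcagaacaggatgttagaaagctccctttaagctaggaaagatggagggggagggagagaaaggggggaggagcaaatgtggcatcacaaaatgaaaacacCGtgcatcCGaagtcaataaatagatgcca
Chrna4 and Palm, which changed in opposite directions, held 24 and 20 CG pairs, both above the upper quartile. Pak7 and Gpnmb, which rose, held 7 each, and Slc25a18, which fell, held 2. Methylation was not measured here, and only 70.1% of the genes tested matched this table by symbol, so no count over called genes is given.

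Ion channel genes were called higher more often than lower. Of 47 potassium channel genes tested, 20 rose and 2 fell, and their median log2 fold change was 0.18, beside 0.0016 over all genes, of which 8.88% rose and 7.72% fell. Kcna1, a low-threshold channel of axons, was at 421 CPM in the male and 319.5 and 366 CPM in the female wild types, against 489.8 CPM in the male and 439 and 489 CPM in the female heterozygotes. The genotypes were apart, with a log2 fold change of 0.36 (SE 0.0632, adjusted p = 2.5e-04 by edgeR). Kcna6, Kcnh7 and Kcnh1 rose by 0.33, 0.31 and 0.32. The number rising was 12 without 141-1, 13 without 141-2 and 9 without 141-4. Of 28 voltage-gated sodium, calcium and HCN channel genes, 12 rose and 2 fell (median 0.17). The sodium channel gene of excitatory axons Scn2a1 was at 605 CPM in the male and 465 and 484 CPM in the female wild types, against 696 CPM in the male and 639 and 684 CPM in the female heterozygotes. It rose by 0.39 (SE 0.0602, adjusted p = 6.5e-05 by edgeR). Scn8a rose by 0.36 and the calcium channel subunit gene Cacna2d3 by 0.49.

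Receptor genes were also called higher more often than lower. Among 28 genes of glutamate receptors and their auxiliary subunits, 9 rose and 2 fell (median 0.11). Of all genes tested 8.88% rose and 7.72% fell. Beside Grin2b the receptor genes that rose included Grin1, the obligatory NMDA receptor subunit, at 0.34 (SE 0.0631, adjusted p = 5.3e-04 by edgeR). The AMPA receptor subunit gene Gria4 rose by 0.31 (SE 0.0591, adjusted p = 4.8e-04 by edgeR). Cnih2, an auxiliary subunit of AMPA receptors, fell. Its level was 143 CPM in the male and 148 and 138 CPM in the female wild types, against 111 CPM in the male and 116 and 101 CPM in the female heterozygotes (log2 fold change -0.38, adjusted p = 7.2e-05 by edgeR). Of 14 GABA receptor genes 6 rose and 1 fell (median 0.14). Gabrb2, a subunit of the common GABA-A receptor, was at 550.2 CPM in the male and 424 and 422 CPM in the female wild types, against 610.0 CPM in the male and 575 and 617 CPM in the female heterozygotes and it rose by 0.38. Gabrg1, the member that fell (-0.45), is a subunit known from glia as well as neurons.

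Genes on the release side split. Of 33 presynaptic genes 11 rose and 4 fell (median 0.10), beside 8.88% of all genes rising and 7.72% falling. Syt1, the calcium sensor of synchronous release, rose by 0.43 (SE 0.0639, adjusted p = 4.0e-05 by edgeR) and the vesicular glutamate transporter gene Slc17a6 by 0.46 (SE 0.0804, adjusted p = 2.0e-04 by edgeR). The active zone genes Unc13c and Rims1 fell, by log2 fold changes of -0.58 (SE 0.0740, adjusted p = 9.4e-06 by edgeR) and -0.33 (SE 0.0551, adjusted p = 1.5e-04 by edgeR). Unc13c was at 65.4 CPM in the male and 81.7 and 71.7 CPM in the female wild types, against 40.1 CPM in the male and 57.7 and 49.0 CPM in the female heterozygotes. Its genotypes did not overlap. Without 141-1 or without 141-3, 7 of the presynaptic genes rose.

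Postsynaptic scaffold genes, in contrast to receptors, were called lower more often than higher. Of 18 tested, 7 fell and 2 rose (median -0.13), beside 7.72% of all genes falling and 8.88% rising. Shank3, a master scaffold of excitatory synapses, was at 461 CPM in the male and 545 and 515 CPM in the female wild types, against 379 CPM in the male and 405 and 366 CPM in the female heterozygotes. Every heterozygote was below every wild type, and the change on the log2 scale was -0.40 (SE 0.0585, adjusted p = 3.1e-05 by edgeR). Dlgap3 fell likewise (log2 fold change -0.41, SE 0.0590, adjusted p = 2.9e-05 by edgeR), as did Homer2 (-0.38) and Shank1 (-0.39). With the GC and length correction the scaffold median was -0.073, with 7 lower and 3 higher. The difference between the receptor and scaffold lists was not itself tested.

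A list of 49 autism risk genes, which shares genes such as Grin2b, Scn2a1, Reln and Shank3 with the lists above and below, held 17 that rose and 5 that fell (median 0.11). The number rising was 8, 11, 10 and 7 without 141-1, 141-2, 141-3 and 141-4. Markers of inhibitory neurons had 6 of 22 rising and 0 falling (median 0.11). Among them Reln, an extracellular matrix glycoprotein, was at 112 CPM in the male and 99.2 and 83.9 CPM in the female wild types, against 133 CPM in the male and 126 and 140.1 CPM in the female heterozygotes, and it rose by 0.44 (SE 0.0713, adjusted p = 1.8e-04 by edgeR). Gad1 and Gad2, which make GABA, rose by 0.28 and 0.23, but in the males the differences were 0.0075 and 0.017. Leaving out 141-1 or 141-4 left 1 inhibitory marker rising, and leaving out 141-2 left 3. Of all genes 8.88% rose and 7.72% fell. Of 18 deep-layer markers 4 rose, led by Sulf2 (0.37), and 0 fell (1 rose without 141-1 or 141-4, 2 without 141-3). Of 15 upper-layer markers 4 rose, Unc5d among them (0.23; 2 rose without 141-2), and Lhx2 fell (-0.25). DESeq2 called 2 deep-layer and 2 upper-layer markers higher. Striatal markers had 0 rising and 1 falling of 16. The one called, Ecel1, is a low-level transcript (3.74 CPM in wild types).

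Astrocyte markers were lower without exception in the edgeR fit of both prefixes. All 30 genes of the list were tested and all 30 fell, with a median log2 fold change of -0.37 and single values between -0.66 and -0.17, beside 7.72% of all genes falling. Gfap, the intermediate filament of astrocytes, was at 158 CPM in the male and 239 and 259.5 CPM in the female wild types, against 128 CPM in the male and 151 and 143 CPM in the female heterozygotes, a log2 fold change of -0.61 (SE 0.0763, adjusted p = 5.0e-05 by edgeR). The genotypes were apart but the male wild type was close to the heterozygous females. Apoe, the main lipid carrier of the brain, was at 823 CPM in the male and 990.4 and 926 CPM in the female wild types, against 628 CPM in the male and 762 and 639 CPM in the female heterozygotes, and it fell, with a log2 fold change of -0.43 (SE 0.0617, adjusted p = 2.9e-05 by edgeR). Fgfr3 and Acsbg1 had -0.40 and -0.44. In 19 of the 30 genes every heterozygote was below every wild type, as in 11.1% of all genes tested. The median was -0.20 in the males and -0.45 in the females, and 28 of the 30 genes had the same sign in both prefixes. DESeq2 called 26 of the list lower and gave no adjusted p for 1. After correction for transcript GC content and length 27 of the 30 were called lower, and leaving out each animal in turn left 23 to 28. In bulk tissue, fewer cells of a type and less RNA per cell cannot be told apart.

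**Figure D3:**
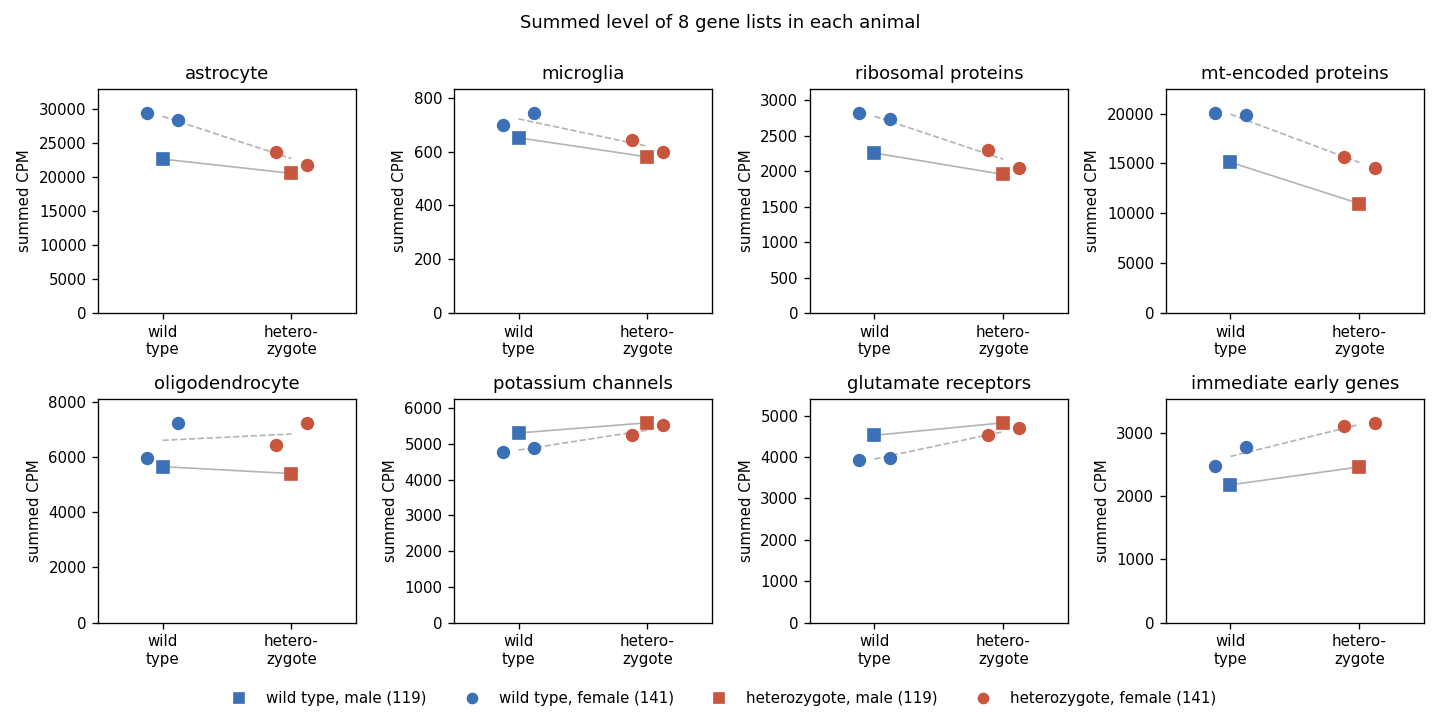
Summed CPM of 8 gene lists (vertical, from 0) in each animal by genotype (horizontal), squares male, circles female, with a solid line joining the males and a dashed line joining the means of the females. Astrocyte, microglia, ribosomal protein and mitochondrially encoded sums go down within each prefix and receptor and channel sums go up, while the oligodendrocyte sum does not separate the genotypes.

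The other non-neuronal marker lists held fewer calls. Of 24 microglial markers 6 fell and 0 rose (median -0.25). Ctss, a lysosomal protease of microglia, fell, with a log2 fold change of -0.35 (SE 0.0822, adjusted p = 0.0035 by edgeR) and the complement gene C1qb with one of -0.29 (SE 0.0786, adjusted p = 0.0098 by edgeR). With the GC and length correction the number falling was 2, without 141-2 it was 3 and without 141-4 it was 1. Of 18 meningeal and fibroblast markers 4 fell, including Ptgds (log2 fold change -0.37, SE 0.0601, adjusted p = 9.4e-05 by edgeR), and 0 rose (2 fell without 141-1 or 141-3). Of 12 mural cell markers 1 fell and 0 rose. Of these mural markers DESeq2 called 0 and gave no adjusted p for 8. Of 22 endothelial markers Cd34 rose (0.32) and Cldn5 fell (-0.34). Both shares, 8.33% of mural and 9.09% of endothelial markers, were under the 16.6% called over all genes. DESeq2 called 2 microglial and 2 meningeal markers lower and gave no adjusted p for 8 and 12. edgeR called no gene among the 5 choroid plexus, 4 ependymal and 5 red blood cell markers that were abundant enough to test, and DESeq2, which gave no adjusted p for 5, 4 and 4 of them, called none of the others. At an unadjusted p under 0.05 in edgeR there were 0, 2 and 0.

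More oligodendrocyte markers rose than fell. Of 22 oligodendrocyte markers 9 rose and 3 fell (median 0.21), beside 8.88% of all genes rising and 7.72% falling. The number falling was 1 without 119-1, 119-2, 141-2 or 141-3. Mag, a myelin-associated glycoprotein, was at 142 CPM in the male and 119 and 140.2 CPM in the female wild types, against 164 CPM in the male and 173 and 200.3 CPM in the female heterozygotes, without overlap, and rose by 0.42 (SE 0.0769, adjusted p = 0.0011 by edgeR). Transferrin (Trf), Cnp and Cldn11 rose by 0.34, 0.29 and 0.38. The median was 0.051 in the males against 0.27 in the females. The list's summed level overlapped between the genotypes (5644 to 7224 CPM in wild types and 5391 to 7231 CPM in heterozygotes). Of 14 precursor markers 3 rose (Tnr, Gpr17 and Enpp6) and 0 fell. That is 21.4%, beside 16.6% called over all genes. In the males the changes of Gpr17 and Enpp6 were 0.025 and 0.031. DESeq2 called 2 of the precursor markers and gave no adjusted p for 6, Enpp6 among them.

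Transcripts of the mitochondrial genome were lower in heterozygotes. All 7 protein-coding mitochondrial transcripts that were tested, of 13 in the table, fell (median -0.44), beside 7.72% of all genes falling. mt-Nd4, a subunit of complex I, was at 978 CPM in the male and 1258 and 1222 CPM in the female wild types, against 673 CPM in the male and 930.2 and 894 CPM in the female heterozygotes, with no overlap and a log2 fold change of -0.47 (SE 0.0558, adjusted p = 4.5e-06 by edgeR). mt-Nd5 had -0.47 (SE 0.0594, adjusted p = 7.4e-06 by edgeR) and mt-Cytb -0.44 (SE 0.0581, adjusted p = 9.4e-06 by edgeR). With the GC and length correction 6 of the 7 were called lower, with a median of -0.27, beside 6.15% of all genes. The ribosomal RNA mt-Rnr2 fell as well (log2 fold change -0.49, SE 0.0756, adjusted p = 6.1e-05 by edgeR). Mitochondrial reads other than ribosomal RNA made up 1.51%, 1.99% and 1.97% of counts in the wild types 119-1, 141-1 and 141-2 and 1.11%, 1.56% and 1.46% in the heterozygotes 119-2, 141-3 and 141-4. In the 8 libraries of the other prefixes that share lay between 0.571% and 0.860%, below all 6 libraries here, so the 2 sets of libraries differ in this measure in both genotypes.

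Nuclear genes of the respiratory chain and the ribosome were lower too. Of 74 nuclear-encoded respiratory chain genes 31 fell and 0 rose (median -0.22), beside 7.72% of all genes falling and 8.88% rising. Ndufb9, a complex I subunit gene, was at 106 CPM in the male and 132 and 131 CPM in the female wild types, against 82.8 CPM in the male and 95.3 and 85.1 CPM in the female heterozygotes, and it fell, with a log2 fold change of -0.48 (SE 0.0624, adjusted p = 9.4e-06 by edgeR). Cox4i1 and Cox8a of complex IV and Atp5e of the ATP synthase had -0.40, -0.37 and -0.46. Of 61 cytosolic ribosomal protein genes tested, out of 78 listed in the table, 37 fell and 0 rose (median -0.34). Rpl13a was at 102 CPM in the male and 135 and 132 CPM in the female wild types, against 80.5 CPM in the male and 92.5 and 83.0 CPM in the female heterozygotes (log2 fold change -0.51, SE 0.0646, adjusted p = 7.4e-06 by edgeR). Rps15, Rpl32 and Rpl34 had -0.44, -0.54 and -0.53. DESeq2 called 21 ribosomal protein genes lower and gave no adjusted p for 20. Ribosomal protein genes have many processed pseudogenes, so their counts are uncertain. Correcting for GC content and transcript length left 16 respiratory chain genes lower and 1 higher (median -0.085), and 19 ribosomal protein genes lower and 1 higher (median -0.23). Without 141-4 there were 18 ribosomal protein genes called lower, and without 141-1 there were 20 respiratory chain genes.

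Some RNAs that are nuclear or lack a poly(A) tail were lower by edgeR. Of 12 such RNAs 5 fell and 0 rose (median -0.27), beside 7.72% of all genes falling and 8.88% rising. Malat1 was at 3042 CPM in the male and 6077 and 5228 CPM in the female wild types, against 2593 CPM in the male and 3760.3 and 4705 CPM in the female heterozygotes (log2 fold change -0.36, SE 0.0792, adjusted p = 0.004 by edgeR), and Neat1, the scaffold of paraspeckles, had -0.45 (SE 0.0864, adjusted p = 5.5e-04 by edgeR). DESeq2 called 1 of the list lower, gave no adjusted p for 4, and had an adjusted p of 0.166 for Malat1, whose ranges overlapped. With the GC and length correction the list's median was -0.16. Xist, which females express, is among those that fell, and the list's summed level was 4007 to 9447 CPM in wild types and 3472 to 7268 CPM in heterozygotes, with overlap. Without 141-1 or without 141-4 the number falling was 3. The part of this measure in the other results was not tested.

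Immediate early and activity-induced genes report recent firing. Of 35 tested, 14 rose and 0 fell (median 0.19), beside 8.88% of all genes rising and 7.72% falling. Egr1, a zinc finger transcription factor induced by firing, was at 172 CPM in the male and 263 and 318 CPM in the female wild types, against 225 CPM in the male and 361 and 400.2 CPM in the female heterozygotes. The prefixes differed more than the genotypes, so the ranges overlapped, while the heterozygotes were higher within each prefix (log2 fold change 0.39, SE 0.0638, adjusted p = 1.5e-04 by edgeR). The pentraxin gene Nptx2 rose by 0.42 (SE 0.0691, adjusted p = 1.0e-04 by edgeR). Without 141-3, 9 of the 35 rose. The list's median was 0.17 in the males, 0.25 in the females and 0.19 in the other prefixes.

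Heat shock and chaperone genes had 8 of 18 rising and 1 falling (median 0.18), beside 8.88% of all genes rising and 7.72% falling. The number rising was 3 without 141-1 and 5 without 141-3 or 141-4. Among them were the cofactor gene Dnajb5 (0.37) and Hsph1, Hsp90aa1 and Hspa8 at 0.28, 0.27 and 0.25. Glycolytic and hypoxia genes had 4 of 20 rising, namely Eno2, Ldha, Aldoa and Pfkl, and 0 falling. This share of 20% was near the 16.6% called over all genes, and no difference from all genes is read. In that list 0, 2 and 1 passed without 141-1, 141-3 and 141-4. Clock genes had 3 of 19 rising (Bhlhe40, Clock and Nfil3) and 0 falling. That is 15.8%, near the 16.6% called over all genes. DESeq2 called 1 of them, and Clock did not pass with DESeq2 (adjusted p = 0.0637) or with the GC and length correction (adjusted p = 0.146 by edgeR). Glucocorticoid response genes went both ways, with 3 of 17 rising and 5 falling. Their counts ranged from 1 to 5 rising and 1 to 4 falling when each animal was left out in turn. DESeq2 called 3 of this list higher and 2 lower. Tsc22d3, a direct target of the glucocorticoid receptor, fell, with a log2 fold change of -0.28 (SE 0.0696, adjusted p = 0.0077 by edgeR). The interferon and antigen presentation list had 0 calls higher and 0 lower of 19 by edgeR. Before adjustment, 2 of them had p under 0.05, and DESeq2 called 0 but gave no adjusted p for 13.

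Imprinted genes, whose parental expression depends on germline methylation, had 7 of 30 rising and 2 falling (median 0.063). Ndn, expressed from the paternal copy, was at 102 CPM in the male and 84.7 and 84.7 CPM in the female wild types, against 126 CPM in the male and 119 and 111 CPM in the female heterozygotes, with the genotypes apart, and rose by 0.39 (SE 0.0605, adjusted p = 6.0e-05 by edgeR). The paternally expressed genes Mest, Impact and Peg3 rose by 0.36, 0.27 and 0.30. Without 141-1 or without 141-3, 4 of the list rose. Of 29 lysosomal genes 7 rose and 0 fell, with 2, 3 and 2 rising without 141-1, 141-2 and 141-3. DESeq2 called 5 imprinted and 4 lysosomal genes, each of them higher. Gpnmb, a transmembrane glycoprotein of lysosomes and melanosomes, was at 1.73 CPM in the male and 1.13 and 1.46 CPM in the female wild types, against 4.23 CPM in the male and 4.21 and 5.18 CPM in the female heterozygotes. The lowest heterozygote was above the highest wild type. The change on the log2 scale was 1.62 (SE 0.245, adjusted p = 4.7e-05 by edgeR), while the lysosomal protease gene Ctsb rose by 0.25. In retinoic acid signalling, 3 of 17 fell and 1 rose. Over all genes 7.72% fell and 8.88% rose. DESeq2 called 1 gene of retinoic acid signalling and gave no adjusted p for 13. Aldh1a1, which oxidises retinaldehyde, was at 35.0 CPM in the male and 50.3 and 52.1 CPM in the female wild types, against 24.6 CPM in the male and 34.9 and 33.9 CPM in the female heterozygotes (log2 fold change -0.55, SE 0.0742, adjusted p = 1.1e-05 by edgeR). The receptor gene Rarg fell and the receptor gene Rara rose.

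Long transcripts and transcripts low in GC content were called higher more often. Genes were put in 5 bins of near-equal size. In the bin of the shortest transcripts 2.74% rose and 10.4% fell, and in that of the longest 16.9% rose and 7.54% fell. In the bin lowest in GC content 11.9% rose and 4.46% fell, against 6.04% and 12.6% in the highest. Across 13662 genes, Spearman's rho of the log2 fold change with transcript length was 0.184 here and -0.0438 in the other prefixes. With GC content it was -0.110 here and 0.117 there. These are descriptions across genes, which share libraries and are not independent replicates. A correction for GC content and length, fitted in each library, gave 1350 higher and 853 lower calls (9.73% and 6.15%), sharing 1099 and 804 with the uncorrected ones. The part of these features in the gene group results was not tested beyond that correction.

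**Figure D4:**
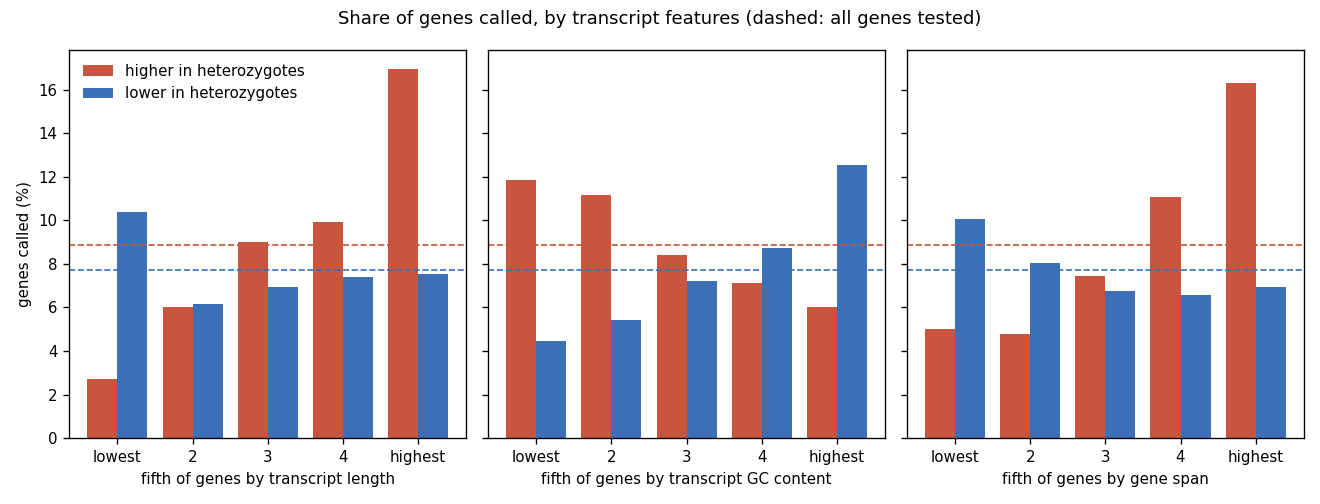
Percentage of genes called higher (red) and lower (blue) in heterozygotes (vertical, from 0) in 5 near-equal bins of the genes tested by transcript length, transcript GC content and gene span (horizontal), with dashed lines at the share of all genes. The share called higher climbs from 2.74% in the shortest to 16.9% in the bin of the longest transcripts.

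The genotype difference in these 6 animals was compared with that in the 8 animals of the other prefixes by an interaction term in a fit of all 14. The difference between the sets was itself called for 767 genes (5.55%), 393 with a more positive (2.84%) and 374 with a more negative change here (2.71%). Analysed alone, the other prefixes gave 2 calls (0.0144%), Dnmt3a and Aldh1a1, with 754 genes at an unadjusted p under 0.05. The interaction count depended on single animals: it was 170 without 141-1, 182 without 141-4, 457 without 141-2 and 468 without 141-3. DESeq2 gave 717.

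The genes with the smallest interaction p that rose here were Adar, Tspyl5, Grin2b, Fam100a, Tspyl4 and Vgf. Adar, which edits adenosine to inosine in double-stranded RNA, was at 165 CPM in the male and 135 and 169 CPM in the female wild types, against 227 CPM in the male and 194 and 208 CPM in the female heterozygotes, and it rose by 0.42 (SE 0.0655, adjusted p = 9.7e-05 by edgeR), against a log2 fold change of -0.18 in the other prefixes (difference 0.59, SE 0.0895, adjusted p = 7.0e-04 by edgeR). Grin2b had -0.20 there, Tspyl4 -0.11 and Vgf -0.042. In the opposite direction were Pak6, mt-Rnr2, A930011O12Rik, Palm, Ndufb9 and Scarna10. Palm had a log2 fold change of 0.023 in the other prefixes (difference -0.49, SE 0.0769, adjusted p = 7.0e-04 by edgeR) and Scarna10 one of 0.20.

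By gene group, the interaction called 13 of 30 astrocyte markers, all 7 tested mitochondrially encoded transcripts, 18 of 74 respiratory chain genes and 11 of 60 ribosomal protein genes as more negative here, beside 2.71% of all genes. Without 141-1 these counts were 8, 6, 8 and 4, and without 141-4 they were 7, 7, 9 and 4. It called 8 of 47 potassium channel genes, 8 of 28 sodium, calcium and HCN channel genes, 7 of 28 glutamate receptor genes and 5 of 14 GABA receptor genes as more positive, beside 2.84% of all genes. These counts were 2, 1, 1 and 1 without 141-1 and 2, 1, 1 and 0 without 141-4. Of 34 immediate early and activity-induced genes, 4 were called more positive here, although the list's median was 0.19 in both sets. That count was 2 without 141-1 and 1 without 141-4. Without the replicate block each count of this paragraph was 0. The medians in the other prefixes were 0.0034 for astrocyte markers, -0.021 for potassium channels and -0.0064 for glutamate receptors. The shares of mitochondrial reads given above were lower in heterozygotes within each prefix and higher here than in the other prefixes. Their part in these counts was not tested.

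**Figure D5:**
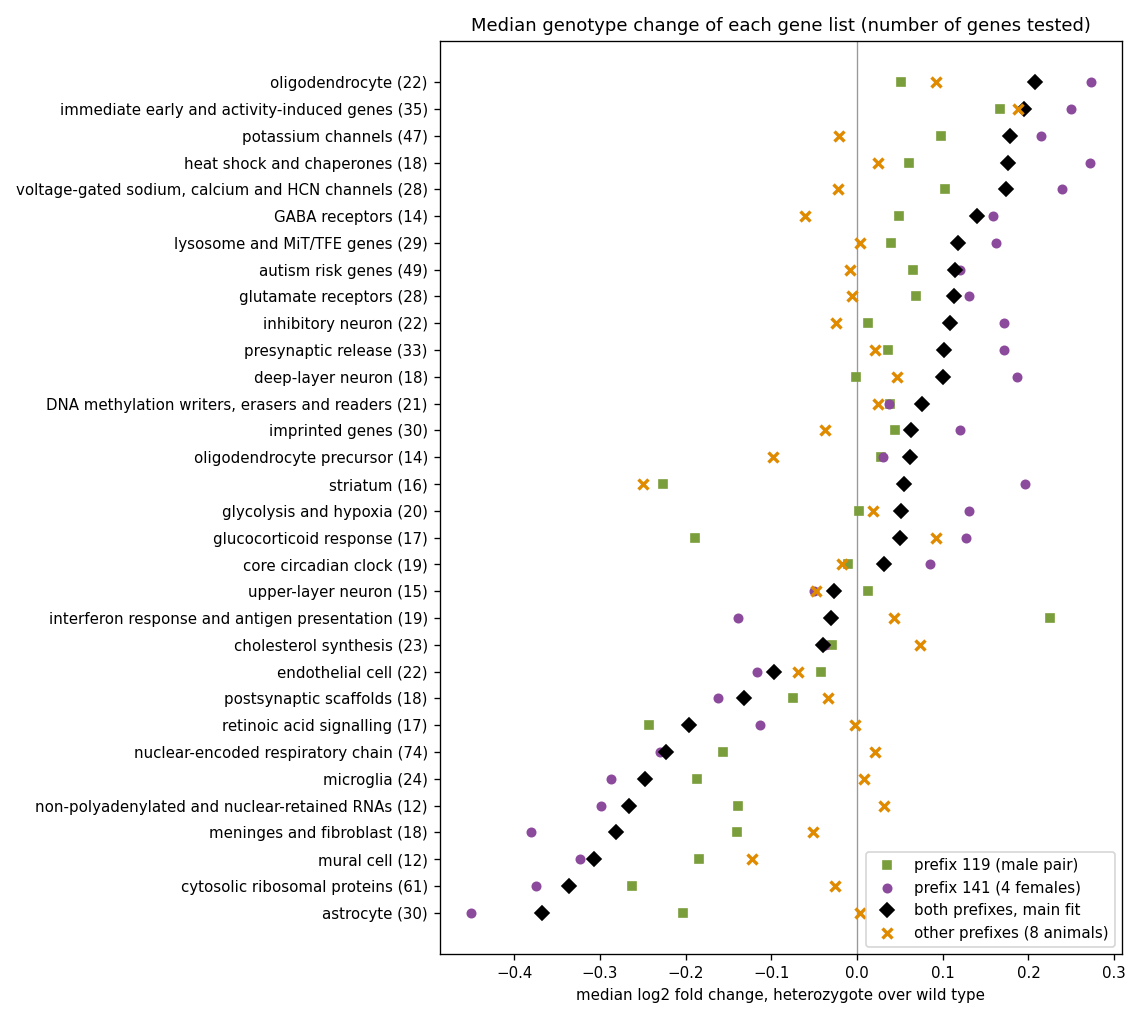
Median log2 fold change, heterozygote over wild type (horizontal), of each gene list with at least 10 genes tested (vertical, number tested in brackets) in both prefixes, in prefix 119, in prefix 141 and in the other prefixes. Astrocyte markers are at -0.37 here and near 0 in the other prefixes, while immediate early genes are at 0.19 in both.

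Dnmt3a and Aldh1a1 fell in the other prefixes as well, and Gpnmb did not pass there (adjusted p = 0.145 by edgeR). In those animals Aldh1a1 had a log2 fold change of -0.54 and Gpnmb 1.19, with differences between the sets of -0.021 (SE 0.108) and 0.43 (SE 0.389). A fit over all 14 animals with the prefix as a term and a single genotype effect called 56 genes. Since it includes the 6 animals here it is not independent of them. Of these, 51 were also called here, and for 6 the difference between the sets was called. They included Mab21l1, a developmental regulator (1.13 CPM in the male and 0.616 and 1.00 CPM in the female wild types, against 3.30 CPM in the male and 2.59 and 2.59 CPM in the female heterozygotes), and the netrin family gene Ntn5 (0.59 here, 0.62 in the other prefixes). Ranbp3l fell here (-0.88), as did the angiotensinogen gene Agt (-0.66), while Dkk3, a secreted protein of the Dickkopf family, rose (0.39). Myh7b, Pamr1, Shroom3, Cd6 and Filip1 did not pass in these 6 animals, with log2 fold changes of 0.58, 0.21, 0.23, 0.34 and -0.36.

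Males and females, equal to prefixes 119 and 141, could be compared only with 1 male of each genotype. Of the 2304 genes called here, 2273 had the same sign in both prefixes, which the fit on both favours, beside 9121 of the 13881 genes tested (65.7%). A test of the difference between the prefixes called 2 genes (0.0144%) by edgeR and 0 by DESeq2, with 997 and 155 at an unadjusted p under 0.05. The edgeR test takes its spread from the females, since each genotype had 1 male. Alkbh8, a tRNA-modifying enzyme gene, was at 29.6 CPM in the male and 25.9 and 25.5 CPM in the female wild types, against 16.0 CPM in the male and 28.9 and 33.2 CPM in the female heterozygotes. The heterozygous male was the lowest of the 6 animals and a heterozygous female, 141-4, the highest. Penk, the enkephalin precursor and a marker of striatal neurons, was at 72.2 CPM in the male and 33.7 and 35.6 CPM in the female wild types, against 56.0 CPM in the male and 47.4 and 59.7 CPM in the female heterozygotes, with the wild-type male the highest animal. The log2 fold changes of Penk were -0.37 in the males and 0.62 in the females. The summed striatal markers, a list that includes Penk, were lower in the heterozygous male than in the wild-type male (929 CPM against 1069 CPM). In the females this sum was 719 and 701 CPM in wild types and 739 and 887 CPM in heterozygotes. The part of striatal tissue in the difference was not tested.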

How the data were processed

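Per the labels' protocols, cortex RNA was prepared with a strand-marking kit and read from 1 end. The authors deposited 1 table of whole-number read counts per gene symbol for the 14 samples, with no normalization, and samples were matched to columns by title. Trim Galore, Bowtie, STAR and bedtools and the mm9 build come from the submitters' processing notes, which give neither roles nor versions. The strand setting of the counting step is not stated in those notes, and genes that overlap in opposite orientation may share reads. The authors' own comparison columns in that table were not used.

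Of 34193 symbols, 15272 had no read in the 6 animals, and the 13881 kept by filterByExpr held 99.9% of their counts. Counts were fitted with edgeR 4.0.16 (R 4.3.3, limma 3.58.1): TMM factors, robust quasi-likelihood F test, title prefix and genotype as terms (3 residual degrees of freedom), Benjamini-Hochberg adjustment and a threshold of 0.05. A gene "rose" or "fell" if it passed. Each SE was derived from the test, as the size of the log2 fold change divided by the square root of its F statistic. CPM are edgeR's, on TMM-scaled library sizes, and log2 CPM for the components and permutations used a prior count of 2. Changes within prefix 119 and within prefix 141 came from a fit with a genotype term in each, and the difference from the other prefixes from a fit of 14 animals with prefix terms and an interaction. DESeq2 1.42.0 was the second tool. The scripts were tested on simulated data. Transcript length and GC content came from the longest transcript of each gene in GENCODE M21, matched by symbol for 98.4% of genes tested. Its build is not that of the counts, and it served for length and GC content only. Promoters came from RefSeq on GRCm38.p6.

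The title prefix was used as the replicate block. Deviations from the genotype means correlated across genes at 0.0894 to 0.418 in the 5 pairs of opposite genotype with the same prefix. In the 4 pairs with different prefixes the correlations were -0.282 to -0.210. Of the same-prefix pairs, 1 (141-4 with 141-1) was below 0.1. Deviations within a genotype cancel out by construction, so these ranges are not independent of each other. Prefix equals sex in these animals, so a shared replicate unit and shared sex cannot be told apart by these correlations. Replicates of a genotype differed by more than sampling noise. The chi-square per degree of freedom was 2.66 for the wild-type females and 4.17 for the heterozygous females. It was 7.53 to 19.3 in pairs of a male with a female, which also differ in prefix. Members and gene lists were chosen with earlier results of these data known. The genes named are Dnmt3a, the 12 genes of mean count at least 20 with the smallest p in each direction, the 4 of each of the 36 lists with the smallest p, the 6 per direction with the smallest interaction p, the 3 per direction with the smallest p for the difference between the prefixes, and genes called over all 14 animals. Dnmt1, Tet1, Tet2 and Tet3 were named after their values were seen. Some genes that the rule would name are not reported here.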

Additional observations from a re-analysis of the deposited data

Results flagged for a closer look

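The genes below, 66 of the 127 that the report names, had a genotype change that differed between these 6 animals and the 8 of the other prefixes by the interaction term (edgeR, adjusted p under 0.05). Many were named because of a low p here, and 6 per direction because of the smallest p in this same interaction test. The count is therefore not independent of the choice of genes, and those 6 per direction were bound to be in it. Values in brackets are the change here minus the change there on the log2 scale, and no cause was tested. 31 were more positive here. These were the receptor and channel genes Grin2b (0.63), Grin1 (0.32), Gria4 (0.29), Gabrb2 (0.40), Scn2a1 (0.44), Scn8a (0.39), Cacna2d3 (0.47), Kcna1 (0.47), and the genes of release and secretion Syt1 (0.43), Vgf (0.49), Scg2 (0.37), Chga (0.32), Pcsk2 (0.36), Sorl1 (0.43). Others were Adar (0.59), Fam100a (0.61), Tspyl5 (0.55), Tspyl4 (0.45), Klf10 (0.43), Disp2 (0.45), Pak7 (0.47), Hapln4 (0.61), Lingo1 (0.38), Reln (0.50), Gad2 (0.33), Tnr (0.41), Mag (0.36), Mest (0.40), Impact (0.34), Ctsb (0.26), Unc5d (0.31).

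In 35 genes the change was more negative here. Those of mitochondrial energy supply and the ribosome were mt-Rnr2 (-0.65), mt-Nd4 (-0.56), mt-Nd5 (-0.50), mt-Cytb (-0.48), Ndufb9 (-0.60), Atp5e (-0.63), Cox8a (-0.47), Cox4i1 (-0.42), Rps15 (-0.60), Rpl13a (-0.51), Rpl32 (-0.45). Nuclear-retained or non-coding RNAs were Scarna10 (-1.04), Malat1 (-0.48), Neat1 (-0.48), A930011O12Rik (-0.68), and glial genes Acsbg1 (-0.49), Gfap (-0.44), Fgfr3 (-0.40), Apoe (-0.38), C1qb (-0.37), Slc25a18 (-0.45). Synaptic genes were Shank1 (-0.36), Shank3 (-0.32), Dlgap3 (-0.36), Homer2 (-0.29), Unc13c (-0.37), Rims1 (-0.32). The remaining ones were AC027184.1 (-0.72), Pak6 (-0.64), Palm (-0.49), Pcsk1n (-0.45), Rasl10b (-0.44), Tsc22d3 (-0.44), Scd1 (-0.33), Zbtb4 (-0.26).

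The interaction of genotype and prefix also passed by edgeR, and not by DESeq2, for Alkbh8, with a difference of -1.16 (adjusted p = 0.0069 by edgeR), and for Penk, with one of -0.99 (adjusted p = 0.0069 by edgeR), each the change in prefix 119 minus that in prefix 141. The males were 1 animal per genotype, so the spread behind these p-values comes from the females alone, and a difference between the sexes is not shown.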

How the results depend on the processing

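The count of genes called by genotype kept within 1.5 times of 2304 with RLE or upper-quartile scaling, no filter, a mean count of at least 20, a non-robust fit, library sizes without mitochondrial and ribosomal protein genes, the fit of all 14 animals, prefix 141 alone and the GC content and length correction, which was chosen after seeing the data. It was 1477 with DESeq2 and 1241 to 2403 when each animal was left out in turn. Without the replicate block it was 0 by edgeR, and the log2 fold change of Dnmt3a was -0.58 (adjusted p = 0.0885 by edgeR). Leaving out an animal moved that of Dnmt3a from -0.53 to -0.65, with the call kept each time. The count of genes whose change differed from the other prefixes was 170 to 945 when each of the 6 animals was left out in turn and 0 without the replicate block, with sex and set of prefixes as terms. That of prefix 119 against prefix 141 was 0 with DESeq2. No named gene that was called changed sign with RLE scaling, with DESeq2, without the replicate block or without 1 animal, but Trank1 and Xist had the opposite sign in prefix 119 (0.080 and 0.26). Calls moved more than signs. Among the 215 genes covered by the naming rule, 14 to 38 lost their edgeR call when 1 animal was left out, most without 141-1. Without the replicate block 175 lost it. With DESeq2, Clock, Malat1, Pfkl, Trank1 and Xist did not pass, nor did C1qb and Clock with the GC content and length correction. For other called genes with few reads, such as Enpp6 and Ecel1, DESeq2 gave no adjusted p, so their calls rest on edgeR. The medians of choroid plexus, upper-layer, deep-layer, striatal, glucocorticoid, clock, cholesterol and interferon genes changed sign under at least 1 setting, so no direction is read from them. The causes of these changes were not tested. With 3 residual degrees of freedom, 1 male of each genotype and few reads for genes such as Gpnmb and Mab21l1, small changes in rare transcripts were not detectable at this depth.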

Other observations

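Further genes of the fit over 14 animals, named by the same rule, showed a change in these 6 that the lists do not cover. Htr2a, the serotonin 2A receptor gene, was at 46.3 CPM in the male and 27.2 and 32.4 CPM in the female wild types, against 61.8 CPM in the male and 40.9 and 42.7 CPM in the female heterozygotes, and it rose by 0.46 (adjusted p = 1.3e-04 by edgeR). Igfbp4, Wnt10a and Wisp1 rose by 0.36, 0.63 and 0.71, and Gas1, a membrane protein that binds Hedgehog ligands, fell (-0.45). Myoc, the collagen receptor gene Ddr2 and the myosin light chain kinase gene Mylk fell as well (-0.48, -0.51 and -0.48). The log2 fold changes in the other prefixes were 0.19 for Htr2a, 0.21 for Igfbp4, 0.37 for Wnt10a, 0.49 for Wisp1, -0.35 for Gas1, -0.30 for Myoc, -0.26 for Ddr2 and -0.31 for Mylk.

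Beside Alkbh8 and Penk, the genes with the smallest p for a difference between the male pair and the females did not pass. Cwf19l2 had a log2 fold change of -1.11 in the males and 0.081 in the females (adjusted p of the difference = 0.079 by edgeR). The glutamine transporter gene Slc38a3 had 0.43 and -0.27, Trank1 had 0.080 and -0.39, and Igf2, an imprinted growth factor gene of the meninges, had 0.18 and -0.50.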
